A study of Rattus norvegicus with 12 samples.

Results

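The miR-130 and miR-301 family was followed in cells and tissue of the rat medial entorhinal cortex (MEC), a cortical area whose layer II stellate neurons send axons to the dentate gyrus. The members were taken by name: miR-130a, miR-130b, miR-301a and miR-301b, which made up 4 of the 375 miRNA assays on the TaqMan Rodent card A. Stellate samples (n = 5) and non-stellate samples (n = 5) came from Long Evans pups that all received the fluorescent dye DiO in the dentate gyrus of both sides on postnatal day 2. On day 4 or 5 their MEC was dissociated and sorted into DiO positive cells, called stellate, and DiO negative cells, called non-stellate. The DiO negative fraction could therefore hold any other cell type of the MEC, as well as stellate cells that took up no dye. Tissue samples (n = 2) were MEC dissected from Long Evans rats on postnatal day 23, with no dissociation or sort and with RNA extracted by a different kit from that used for sorted cells. The labels list no dye injection for the tissue samples, and give no strain difference or genetic change between groups.

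MiRNAs are short RNAs that guide silencing complexes to mRNAs, mainly through pairing of bases 2 to 8, the seed, with sites in the target. MiRNAs with a common seed can therefore bind common sites. The miR-130 and miR-301 family is known for lowering the output of mRNAs that act in growth factor and TGF-beta signalling, and its members are made in many tissues, brain included. The 3p arm of each hairpin is the arm that the name without a suffix usually stands for.

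The mature sequences are shown because the members have a common 5′ end and miR-130a and miR-130b differ little beyond it, which bears on how far assays can tell that pair apart. A mature 3p sequence was matched in RefSeq (build GRCr8) for 3 of the 4 members, all but miR-301a. Capitals mark the seed.
miR-130a: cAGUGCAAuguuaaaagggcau
miR-130b: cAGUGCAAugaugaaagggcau
miR-301b: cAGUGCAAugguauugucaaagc
The seed AGUGCAA was identical in the 3 sequences, and it pairs with the target letters UUGCACU. The first 10 bases were also the same in all of them. Counted from 1 at the 5′ end, miR-130a and miR-130b differed at 2 of 22 positions, as U11A and A13G. By contrast, miR-301b matched miR-130a at 13 of the first 22 positions and miR-130b at 12. Whether the assays of miR-130a and miR-130b detect each other's target was not tested.

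The genes lay at 3 loci. On GRCr8, Mir130a was at chr3:90229228-90229315 on the minus strand, where it overlapped another miRNA gene, Mir3590. Mir301a was at chr10:72422599-72422698 on the plus strand, inside the spans of the protein-coding genes Ska2 and Prr11. Mir301b, at chr11:97384033-97384110, and Mir130b, at chr11:97384380-97384461, were neighbours on the plus strand with 269 bases between their hairpins. Both fell inside the span of the protein-coding gene 2610318N02Rikl, and exon or intron position was not analysed here. The 2 neighbouring hairpins are shown because their mature products were compared directly. Capitals mark the 3p arm.
Mir301b: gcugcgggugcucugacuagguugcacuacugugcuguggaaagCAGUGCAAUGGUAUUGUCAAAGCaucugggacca
Mir130b: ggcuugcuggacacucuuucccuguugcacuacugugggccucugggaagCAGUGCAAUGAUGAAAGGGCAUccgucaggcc

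The measure was Ct, the PCR cycle at which an assay crossed its threshold, a log2 scale that falls by 1 cycle as abundance doubles. Determined miRNA assays numbered 234 to 260 in stellate samples, 203 to 241 in non-stellate samples and 292 to 302 in tissue. U6, a small nuclear RNA with 4 wells on the card, had a mean Ct of 16.50 to 19.02, 17.74 to 20.23 and 15.59 to 15.96 in the same order. Non-stellate samples 3 and 5 carry a description that reads as labelled, against their title, source and fluorescence, so values without them are given where they change a call or a direction. The neuron list (miR-124, miR-128a, miR-138, miR-129-3p, miR-9) was determined in every sample. Of the 2 oligodendrocyte markers, miR-219 was undetermined in 5 stellate and 3 non-stellate samples, with Ct 31.48 and 32.06 in non-stellate samples 1 and 3, and miR-338-3p was undetermined in 2 stellate and 5 non-stellate samples. All 4 family members were determined in all 12 samples, at Ct 22.40 to 32.88, against a highest determined Ct of 38.2 on the cards.

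Ct of miR-130a was 29.48, 28.30, 30.40, 28.33 and 27.94 in stellate samples 1 to 5. It was 29.28, 29.06, 30.44, 28.95 and 31.50 in non-stellate samples 1 to 5, and 23.18 and 23.10 in tissue. The sorted groups overlapped, and both tissue samples came up earlier than any sorted sample. Ct of miR-301a was 28.44, 29.59, 30.37, 29.50 and 28.23 in stellate samples. In non-stellate samples it was 29.41, 30.04, 31.10, 29.80 and 32.29, and in tissue 22.98 and 22.70. The pattern was that of miR-130a, with non-stellate samples 3 and 5 the latest of all.

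Ct of miR-130b was 31.20, 30.45, 32.23, 30.49 and 29.46 in stellate samples. It was 31.25, 30.42, 32.88, 30.48 and 32.74 in non-stellate samples and 27.27 and 26.61 in tissue. This was the latest member in 12 of 12 samples, and the smallest gap between tissue and sorted samples was found here. Ct of its cluster partner miR-301b was 28.36, 29.37, 30.27, 29.35 and 28.73 in stellate samples. In non-stellate samples it was 29.11, 29.43, 31.35, 29.78 and 30.99, and in tissue 22.40 and 22.50. The earliest member was miR-301b in both tissue samples, stellate samples 1 and 3 and non-stellate samples 1 and 5, and miR-130a in the other 6 sorted samples. Assays can amplify with unequal efficiency, so an order between members is one of Ct and not of molecules.

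Samples were put on a common scale in 2 ways, since the amount of RNA differed. U6 scaling takes off the mean of that sample's own U6 wells. Median centring gives a level over the card median, which is the median Ct of the 176 miRNA assays determined in all 12 samples minus the Ct of the member, so that a positive value is a level above that of the middle assay. U6-scaled Ct of miR-130a was 11.21 ± 0.99 in stellate samples (SD, n = 5), 11.35 ± 0.74 in non-stellate samples (SD, n = 5) and 7.36 ± 0.20 in tissue (SD, n = 2). For miR-301a it was 11.55 ± 0.16, 12.03 ± 0.77 and 7.07 ± 0.06 in the same order, the stellate samples being the tightest of any sorted group. For miR-130b it was 13.09 ± 0.80, 13.06 ± 1.14 and 11.17 ± 0.21, and for miR-301b 11.54 ± 0.41, 11.64 ± 1.06 and 6.67 ± 0.33. In each sorted group the means of miR-130a, miR-301a and miR-301b lay within their spread of each other, with miR-130b later.

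On the median-centred scale the level of miR-130a over the card median was -0.50 ± 0.58 in stellate samples (log2, SD, n = 5), -0.24 ± 0.23 in non-stellate samples (SD, n = 5) and 0.56 ± 0.05 in tissue (SD, n = 2). Levels of miR-301a were -0.84 ± 0.57, -0.93 ± 0.30 and 0.85 ± 0.19 in the same order, and those of miR-301b -0.82 ± 0.43, -0.53 ± 0.43 and 1.25 ± 0.08. These 3 members thus sat just under the middle of the card in sorted cells and above it in tissue. Levels of miR-130b were -2.38 ± 0.58, -1.95 ± 0.53 and -3.25 ± 0.46, under the middle assay in every group and lowest in tissue.

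**Figure D1:**
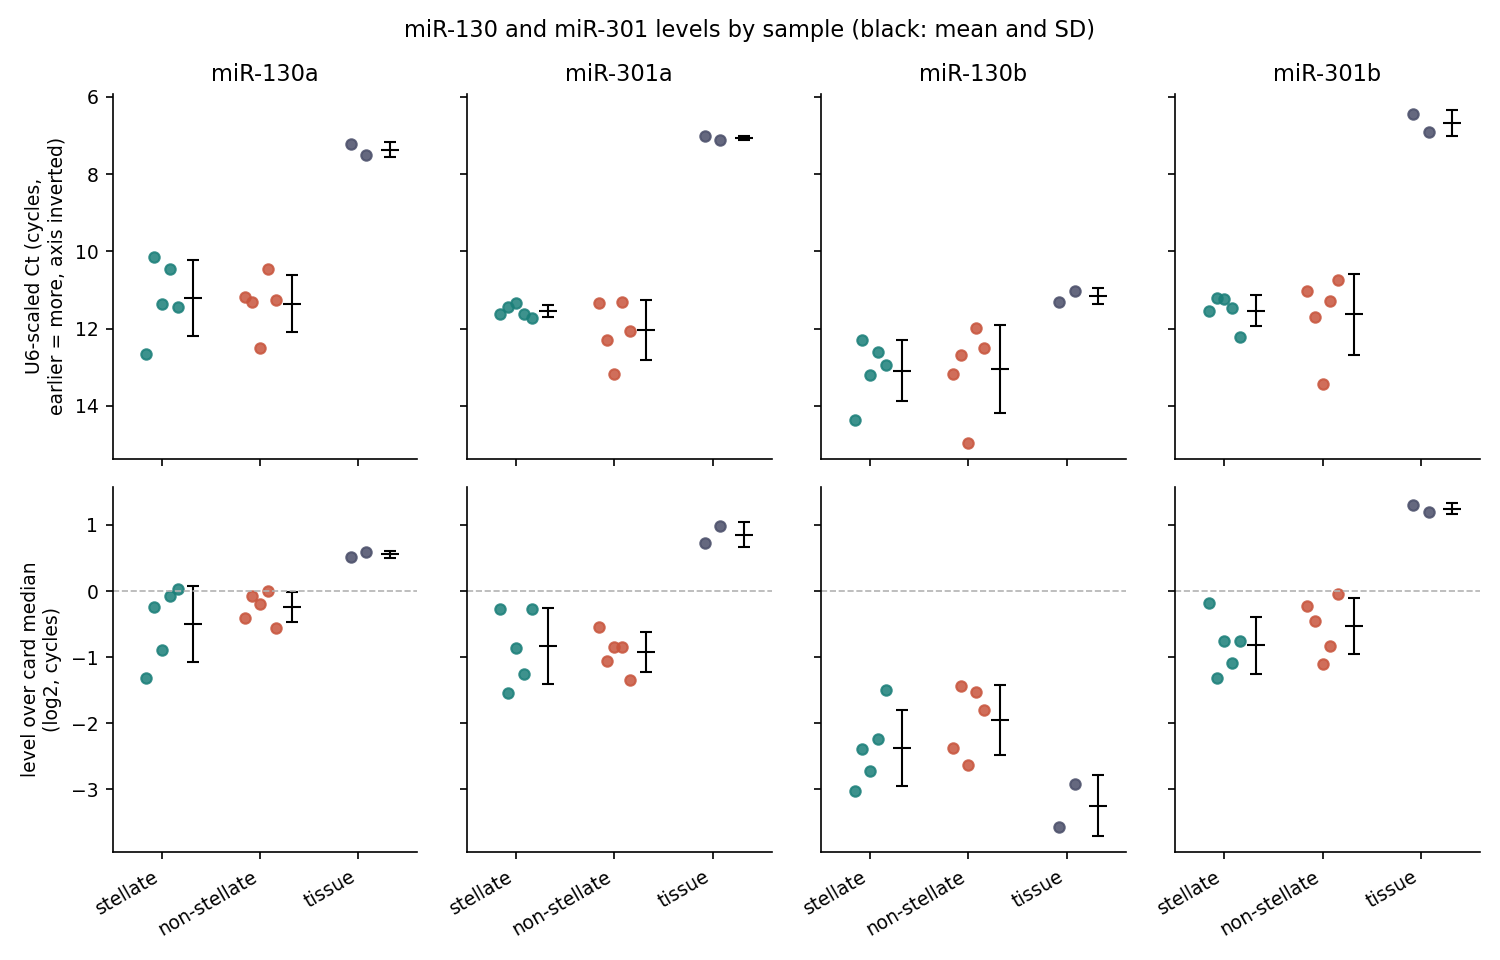
Levels of the 4 members in each sample, with mean and SD in black (stellate and non-stellate n = 5, tissue n = 2). The upper row gives U6-scaled Ct in cycles on an inverted axis, and the lower row the level over the card median in log2 units. All 4 members are higher in tissue after U6 scaling, while miR-130b alone lies lower in tissue on average after median centring.

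Stellate and non-stellate cells were compared to ask which miRNAs mark the projection neurons among the cells around them. No member differed between the groups under either scaling. Over the whole card none of the 222 tested assays passed in limma (0% higher and 0% lower under either scaling), with 16 assays (7.21%) at an unadjusted p under 0.05 after U6 scaling and 28 (12.6%) after median centring. No member was among those. After U6 scaling the difference, stellate minus non-stellate, was 0.14 for miR-130a (log2, 95% interval -1.17 to 1.45, limma adjusted p = 0.976) and 0.48 for miR-301a (-0.58 to 1.55, adjusted p = 0.777). It was -0.03 for miR-130b (-1.44 to 1.38, adjusted p = 0.996) and 0.10 for miR-301b (-1.15 to 1.35, adjusted p = 0.980). These intervals reach past 1 log2 unit in the direction of stellate cells for every member. They also do so in the direction of non-stellate cells for miR-130a, miR-130b and miR-301b. In samples of sorted cells, fewer cells of a type and less RNA per cell cannot be told apart.

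All tested assays shifted by a median of 0.46 after U6 scaling and of 0.07 after median centring, and the signs of 2 members changed with the scaling. Median-centred differences were -0.25 for miR-130a (95% interval -0.94 to 0.43, limma adjusted p = 0.628), -0.42 for miR-130b (-1.23 to 0.38, adjusted p = 0.536) and -0.29 for miR-301b (-0.97 to 0.38, adjusted p = 0.608). For miR-301a the difference was 0.09 (-0.61 to 0.79, adjusted p = 0.896). On this scale no interval reached 1 log2 unit in the direction of stellate cells, and that of miR-130b reached past it in the direction of non-stellate cells. The signs of miR-130a and miR-301b thus turned between the scalings, and they also turned after U6 scaling without non-stellate samples 3 and 5, to -0.22 and -0.20. The median over the 4 members was 0.12 after U6 scaling and -0.27 after median centring. No member was without overlap between the groups, against 0% of all tested assays after U6 scaling and 4.05% after median centring.

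Labelled and unlabelled cells of the same number were read as coming from the same replicate, and differences were also taken within pairs. After U6 scaling, miR-130a and miR-301a were higher in stellate cells in 3 of 5 pairs and miR-130b and miR-301b in 2 of 5. Pair 3 gave the largest positive difference for 3 members, at 1.83 for miR-301a, 1.75 for miR-130b and 2.18 for miR-301b, and stood at 1.15 for miR-130a, where pair 2 was at 1.18. In pair 1 all 4 members were lower in stellate cells, from -0.29 for miR-301a to -1.47 for miR-130a. After median centring, pair 3 lay between -0.70 and 0.34, and the members were higher in stellate cells in 1, 1, 2 and 2 of 5 pairs for miR-130a, miR-130b, miR-301a and miR-301b. The common shift of pair 3 relative to U6 was thus shared with the card as a whole. In that pair the U6 mean Ct was later in the stellate sample, at 19.02 against 17.93. The card median Ct was earlier there, at 29.51 against 30.25.

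**Figure D2:**
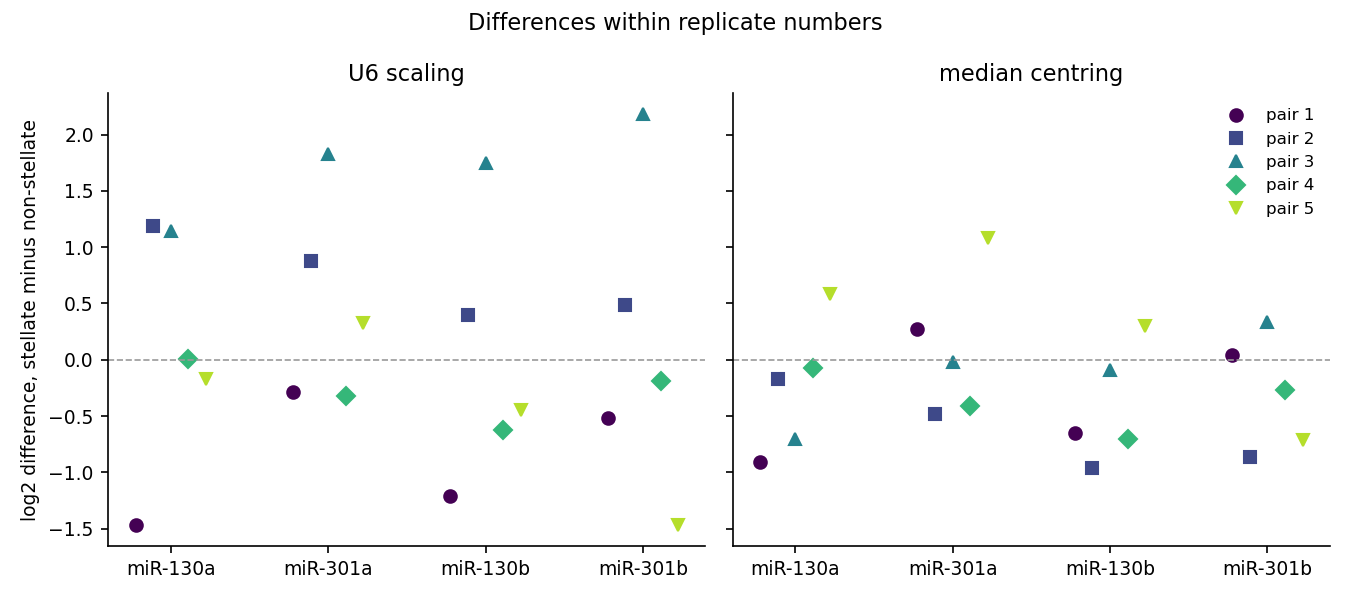
Difference within each replicate number, stellate minus non-stellate, in log2 units after U6 scaling (left) and median centring (right), 1 symbol per pair. Pair 3 is high for all 4 members after U6 scaling only, and points lie on both sides of 0 for every member.

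Tissue was set against the mean of both sorted groups. Every member was higher in tissue after U6 scaling, but so was most of the card. In limma, 138 of 222 tested assays (62.2%) passed as higher in tissue and 3 (1.35%) as lower, with a median shift of 3.02. The difference was 4.91 for miR-301b (log2, SE 0.66, limma adjusted p = 6.62e-05), 4.72 for miR-301a (SE 0.55, adjusted p = 2.96e-05) and 3.92 for miR-130a (SE 0.69, adjusted p = 0.000385). For miR-130b it was 1.91 (SE 0.74, adjusted p = 0.0387), below the shift of the card. This last call was lost without replicate 1 (adjusted p = 0.0606), replicate 5 (0.0521), tissue sample 1 (0.136) or tissue sample 2 (0.183), and with tissue averaged as 1 sample (0.161). The tissue and sorted samples did not overlap for any member, as for 68.0% of tested assays with tissue higher and 0.901% with tissue lower.

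Median centring, which removes the shift of the card, separated the members. Passing assays then numbered 53 (23.9%) higher and 56 (25.2%) lower, with a median shift of 0.03. Tissue stood 1.92 higher for miR-301b (SE 0.34, limma adjusted p = 0.000852) and 1.73 higher for miR-301a (SE 0.36, adjusted p = 0.00235), and both kept their call in every alternative run. For miR-130a the difference was 0.93 (SE 0.35, 95% interval 0.16 to 1.70, adjusted p = 0.0475). That call was lost without replicate 2 (0.0684), 3 (0.0747) or 4 (0.0538), without non-stellate samples 3 and 5 (0.0782), without tissue sample 1 (0.181) or 2 (0.212), and with tissue averaged as 1 sample (0.198). For miR-130b the difference was -1.08 (SE 0.43, 95% interval -2.03 to -0.13, adjusted p = 0.0568), opposite in sign to that after U6 scaling. It passed the threshold without replicate 1 (0.0325), without replicate 3 (0.0411) and without non-stellate samples 3 and 5 (0.0496). It did not pass in the other median-centred runs, and ran from -1.41 to -0.76 with a replicate or tissue sample left out.

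Ranked from the highest median-centred difference among the 222 assays, miR-301b was at 40, miR-301a at 48, miR-130a at 78 and miR-130b at 148. The tissue levels of miR-301b, 1.30 and 1.19, were above all 10 sorted levels, which ran from -1.31 to -0.05. Those of miR-301a, 0.72 and 0.99, were above the sorted range of -1.54 to -0.27, and those of miR-130a, 0.52 and 0.59, above the sorted range of -1.31 to 0.03. Levels of miR-130b in tissue, -3.57 and -2.92, overlapped the sorted range of -3.03 to -1.44. Over all tested assays 27.0% were without overlap with tissue higher and 26.1% with tissue lower. The median over the members was 4.32 after U6 scaling and 1.33 after median centring. Age, the dye injection (listed for sorted samples only), the sort and the extraction kit all differ between tissue and sorted cells and cannot be told apart.

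**Figure D3:**
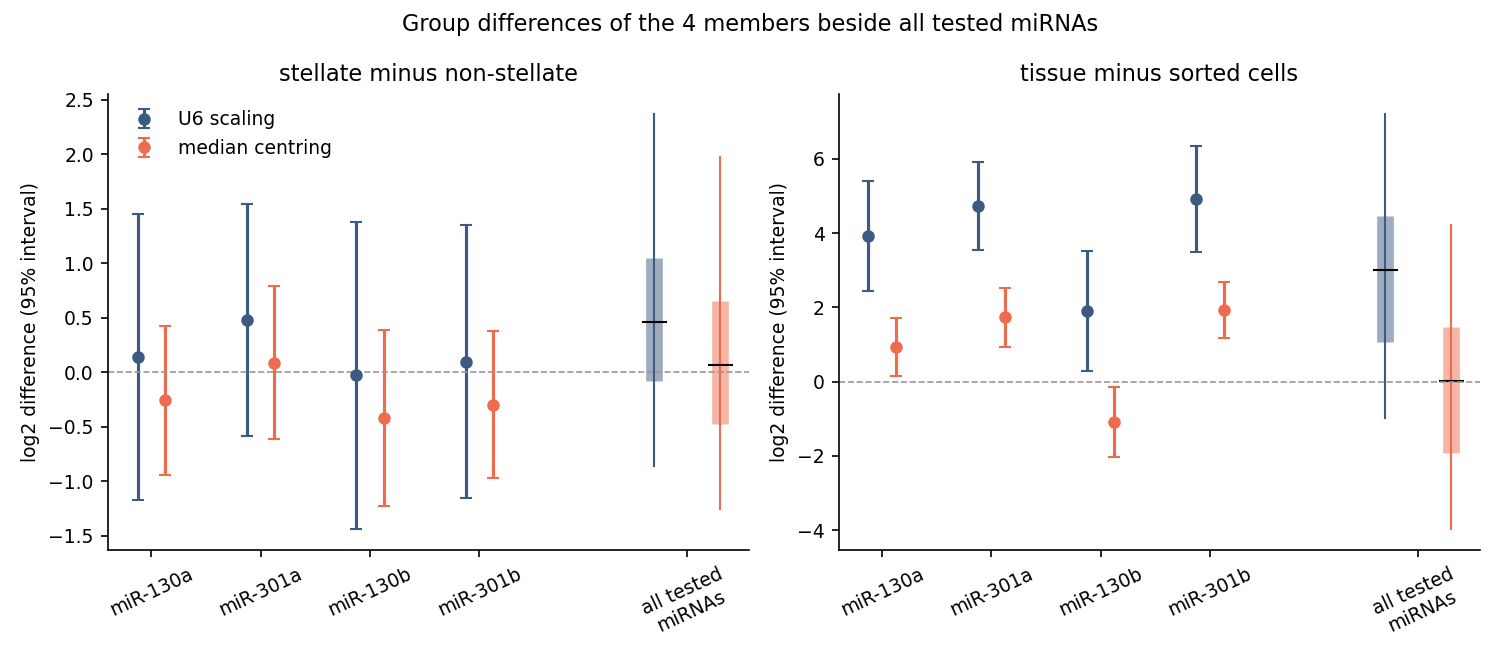
Log2 differences of the 4 members with 95% intervals, for stellate minus non-stellate cells (left) and tissue minus sorted cells (right), after U6 scaling (blue) and median centring (orange). The bars at the right of each panel give all 222 tested assays, as a black median, a box over the middle quartiles and a line from the 5th to the 95th percentile. All intervals include 0 on the left, and miR-130b lies below 0 after median centring on the right.

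A ratio of members within a sample needs no reference RNA, since scaling cancels. The log2 ratio of miR-301b over its cluster partner miR-130b, taken as Ct of miR-130b minus Ct of miR-301b, was 2.84, 1.08, 1.96, 1.14 and 0.73 in stellate samples. In non-stellate samples it was 2.15, 0.99, 1.53, 0.70 and 1.75, and in tissue 4.87 and 4.12. The sorted groups overlapped throughout, and both tissue samples were above every sorted sample. The mean was 1.49 ± 0.69 in sorted cells (SD, n = 10) and 4.49 ± 0.54 in tissue (SD, n = 2). Tissue thus exceeded sorted cells by 3.01, or 8.04-fold (exact two-sided permutation p = 0.0152, the smallest that 66 splits allow). Those splits treated the 10 sorted samples as independent, although labelled and unlabelled samples come in pairs. Against stellate or non-stellate samples alone the difference was 2.94 or 3.07 (exact permutation p = 0.0476 each, the smallest that 21 splits allow). Without tissue sample 1 or 2 the difference from all sorted samples was 2.63 or 3.39. Those runs hold 1 tissue sample, and their 11 splits are too few to reach the threshold of 0.05. Such separation was common on the card: of 15400 ratios between assays determined in all 12 samples, 56.9% were without overlap between tissue and sorted cells, and 35.0% differed by at least as much as this ratio.

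Between stellate and non-stellate cells the ratio of miR-301b over miR-130b differed by 0.13 (exact two-sided permutation p = 0.794). Within pairs it was higher in stellate cells in 4 of 5, and an exact sign-flip permutation of the pairs gave p = 0.688. Without replicate 1 the difference was -0.014.

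The log2 ratio of miR-301a over miR-130b was 1.28 ± 0.76 in sorted cells (SD, n = 10) and 4.10 ± 0.27 in tissue (SD, n = 2), 2.82 higher and without overlap. That of miR-130b over miR-130a was -1.79 ± 0.39 in sorted cells and -3.80 ± 0.41 in tissue, 2.01 lower and without overlap. The 3 ratios that left out miR-130b overlapped between tissue and sorted cells, with tissue 0.81 higher for miR-301a over miR-130a, 1.00 higher for miR-301b over miR-130a and 0.19 higher for miR-301b over miR-301a. Separation was thus found for 3 of 6 ratios, close to the 56.9% of ratios on the card, and the count rested on 1 library. In stellate sample 1 the log2 ratios of miR-301a and miR-301b over miR-130a were 1.04 and 1.12. Without it the highest sorted values were 0.03 and 0.51, below the tissue values of 0.20 and 0.40 for miR-301a and of 0.78 and 0.60 for miR-301b, so that 5 of 6 ratios were without overlap, beside 64.0% on the card. Leaving out any other sorted library gave 3 of 6. Between stellate and non-stellate cells 0 of 6 were without overlap, against 3.95% of ratios on the card. Within pairs the 6 ratios were higher in stellate cells in 2 to 5 of 5. The highest count was that of miR-301a over miR-130b, at 5 of 5 by a mean of 0.51. In pair 3 that ratio was 1.86 in stellate and 1.79 in non-stellate cells, and pairs 3 and 5 hold the non-stellate samples described as labelled. This count was not tested, and the share of card ratios that reach it was not computed.

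**Figure D4:**
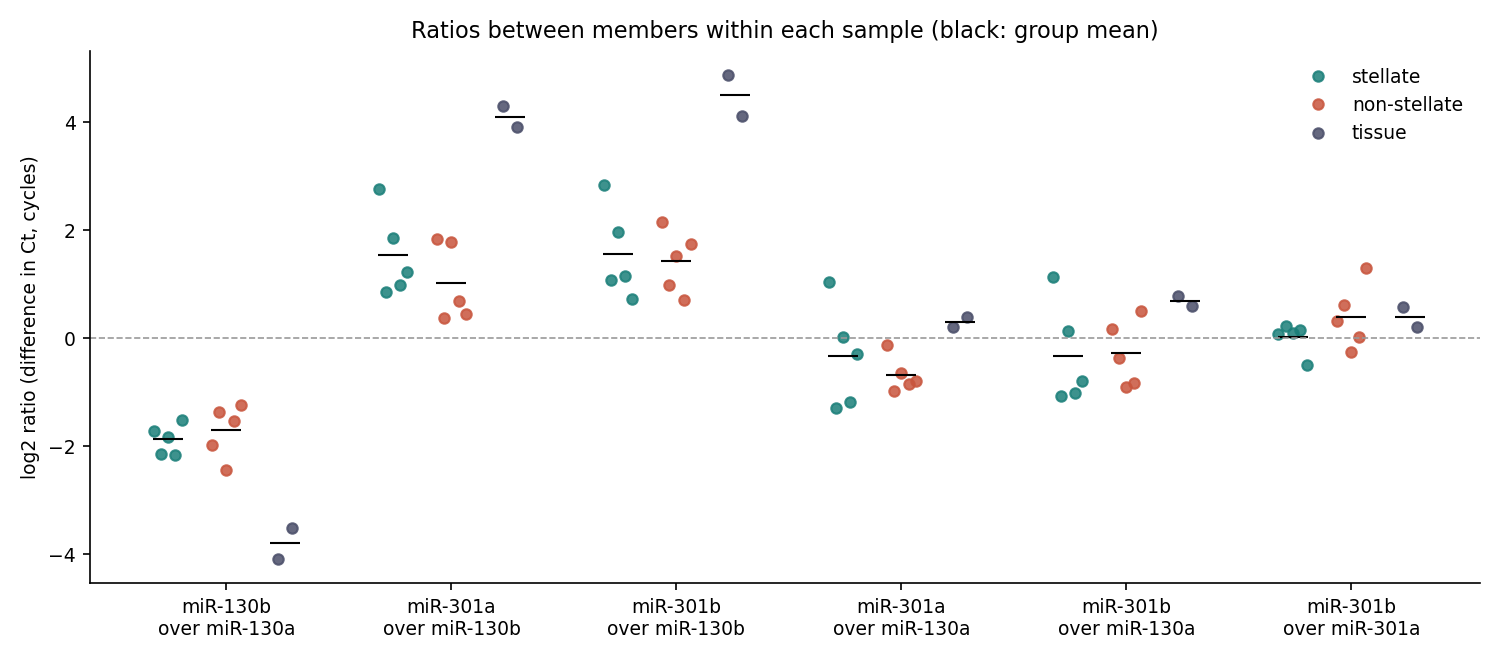
Log2 ratio of each pair of members in each sample, as a difference in Ct in cycles, with the group mean in black (stellate and non-stellate n = 5, tissue n = 2). The tissue samples lie outside the sorted range for the 3 ratios that hold miR-130b. For miR-301a and miR-301b over miR-130a they lie inside it through stellate sample 1 alone.

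Among samples of a group, the members varied less than most of the card. The pooled within-group SD of the median-centred level was 0.43 for miR-301b, 0.44 for miR-130a, 0.46 for miR-301a and 0.55 for miR-130b, at places 38, 41, 44 and 67 from the lowest of 176 assays, whose median was 0.63. Members did not all vary together across the 10 sorted samples. Pearson r of median-centred levels was 0.730 for miR-130a with miR-130b, 0.364 for miR-301a with miR-301b and 0.068 for the cluster partners miR-130b and miR-301b. For miR-130a it was -0.289 with miR-301a and -0.499 with miR-301b, and for miR-130b with miR-301a it was -0.143. Each is a description over 10 samples that share cards, input and the centring.

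By the same measure, the assays most like the mean of the members were miR-25 (r = 0.826), miR-9, an abundant neural miRNA (0.793), and miR-30b (0.774). They are the highest values among all tested assays outside the family. Likeness to the mean did not hold for each member: r of miR-25 was 0.736 with miR-130a and 0.747 with miR-130b, but 0.117 with miR-301a and with miR-301b. For single members the most alike were miR-384-3p for miR-130a (0.891, with 3 of its 10 wells undetermined), miR-125b-5p for miR-130b (0.833), miR-340-3p for miR-301a (0.766) and miR-16, a widely made miRNA, for miR-301b (0.750). No assay was the closest for more than 1 member.

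Relatives by seed were read from a list of miRNAs whose seed is identical or shares 6 letters in a row with that of the family. Neither miR-454 nor miR-721, of identical seed, was on the card. The relatives on the card are shown with the seed in capitals, since they carry the common letters GUGCAA (miR-19a and miR-19b) or AGUGCA (miR-148a, miR-148b and miR-152) at a shifted position.
miR-19a: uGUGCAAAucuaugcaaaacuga
miR-19b: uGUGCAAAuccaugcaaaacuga
miR-148a: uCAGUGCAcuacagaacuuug
miR-148b: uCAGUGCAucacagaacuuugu
miR-152: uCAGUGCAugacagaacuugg
None of the 5 passed between stellate and non-stellate cells under either scaling. In tissue all 5 passed as higher after U6 scaling, where 62.2% of tested assays did, and 1 of 5 after median centring, where 23.9% did. That was miR-19a, known from a cluster of miRNAs that promote cell growth, at 0.99 (limma adjusted p = 0.0414). Its near twin miR-19b stood at 0.53 (adjusted p = 0.164). Values were 2.49 for miR-148a (adjusted p = 0.159) and 1.74 for miR-148b (adjusted p = 0.316), each with 1 undetermined non-stellate well, and -0.77 for miR-152 (adjusted p = 0.215). The median over the 5 was 0.99 in tissue after median centring and 0.09 between the sorted groups, beside 0.03 and 0.07 for all tested assays.

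Markers of other cell types were read beside the family, and their part in its values was not tested. Their calls stand beside shares of 62.2% of tested assays higher in tissue after U6 scaling and 23.9% after median centring. The summed linear level of the 4 members over the card median was 1.78 to 2.80 in stellate samples, 2.06 to 2.53 in non-stellate samples and 5.63 to 5.91 in tissue. The 4 miRNAs listed as vascular (miR-143, miR-145, miR-126-3p, miR-126-5p) summed to 2.38 to 21.3, 2.25 to 6.68 and 23.9 to 27.0 in the same order. All 4 passed as higher in tissue after U6 scaling and 2 after median centring. Their sum is not a measure of vessel content, since miR-143 is not made by vessels alone. Of the 6 blood and microglia markers 5 were on the card, with sums of 3.34 to 34.4, 1.21 to 4.07 and 10.7 to 11.3. Among them miR-142-5p and miR-451 were undetermined in all 10 sorted samples and determined in tissue. Of the 3 tested, 3 passed as higher in tissue after U6 scaling and 1 after median centring. Between the sorted groups these 3 did not move alike, and none passed. After U6 scaling, stellate minus non-stellate was 2.37 for miR-150, 0.22 for miR-223 and -0.77 for miR-142-3p. The 2 oligodendrocyte markers summed to 0 to 0.00903, 0 to 0.287 and 0.287 to 0.410. The 5 neuron markers summed to 190 to 428, 278 to 518 and 386 to 401, so that the tissue sum lay inside the range of sorted cells. Taken singly, 5 passed as higher in tissue after U6 scaling and 2 after median centring. The median-centred differences were 1.27 for miR-124, 1.28 for miR-128a, 1.43 for miR-138, 1.82 for miR-129-3p and 0.17 for miR-9.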

How the data were processed

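MiRNAs were measured on TaqMan Rodent card A after Megaplex pre-amplification and reverse transcription. The deposited raw table holds Ct on a log2 scale, with 40 in undetermined wells. The table normalized by the authors shares that log2 scale and was found to be Ct less the mean of the 4 U6 wells (largest difference 7.1e-15). The authors' deposited tables of fold changes (a ratio) and limma values (fold change, p-value, score) hold their own comparisons and were not used. Each assay had 1 well, except U6 (pooled SD of its wells 0.37 cycles), and no molecule count exists, so the number of samples limits precision.

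Of the 375 miRNA assays, the 222 with no more than 3 undetermined wells among sorted samples were tested by limma 3.58.1 under R 4.3.3, through eBayes after lmFit. P-values were two-sided and adjusted over all 222 by Benjamini-Hochberg, with a threshold of 0.05. Log2 differences are minus the difference in Ct, so a positive value is more miRNA. Stellate and non-stellate samples were fitted with no block, as the study's methods name none, and tissue in a model of all 12 samples. P-values measure the spread between samples as labelled. Median centring used the 176 assays determined in all 12. The member ratio was tested by exact permutation over samples in Python 3.11.15 with scipy 1.17.1. The procedure was tested on simulated data.

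Groups came from titles, sources and fluorescence. The numbers were read as pairs because labelled and unlabelled cells came from 5 biological replicates. Deviations from the group means correlated within numbers 1 to 5 at r = 0.331, 0.119, 0.256, 0.155 and 0.0743. Unlike numbers averaged -0.0481. Taking off group means ties that average to the like values, so it adds no separate support, and these values do not settle the pairing. Tissue counts as 2 samples, as labelled. Over 230 assays under Ct 30 their difference had an SD of 0.389, between the 0.288 and 0.518 that well noise of U6 gives in tissue and in all samples, so the values cannot settle whether they differ by more than well noise. They were also averaged as 1. Named were the 4 members, the seed list, the 3 assays most alike to the family mean and the closest to each member. Members, lists and tests were chosen with earlier results of these data known. Alternatives changed the scaling, undetermined wells, filter, block and samples.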

Additional observations from a re-analysis of the deposited data

Results flagged for a closer look

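The log2 ratio of miR-301b over miR-301a was -0.50 in stellate sample 5, while the other 4 stellate samples lay between 0.08 and 0.22. Its gap to the nearest sample was over the 95% limit of Dixon's test for a group of 5. It was the 1 such value among 28 groups checked, where chance at 1 in 20 gives 1.4. In that sample miR-301b had a Ct of 28.73 and miR-301a of 28.23.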

How the results depend on the processing

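Between stellate and non-stellate cells no assay passed under any alternative run, by limma's adjusted p, and directions of members were not stable. After U6 scaling, miR-130a became -0.25 with median centring, -0.19 with the global mean, -0.22 without non-stellate samples 3 and 5 and -0.25 with the replicate block and median centring. For miR-301b these were -0.29, -0.23, -0.20 and -0.29. With the mean of the reference RNAs miR-130b was 0.21. Leaving out each replicate gave -0.12 to 0.54 for miR-130a, -0.47 to 0.27 for miR-130b, -0.42 to 0.49 for miR-301b and, for miR-301a after median centring, -0.16 to 0.23, with -0.023 without non-stellate samples 3 and 5. The replicate block for pairs left 0 passing assays (26 at an unadjusted p under 0.05, and 48 with median centring), gave the ratio of miR-301b over miR-130b p = 0.688 in an exact sign-flip permutation, and changed no other call. That ratio ran from -0.014 to 0.41 between these groups with a replicate left out.

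For tissue, miR-130b became -1.08 with median centring and -0.77 with the global mean. Passing assays numbered 238 (182 higher, 56 lower) with no filter, against 141. That run tested all 375 assays, also those undetermined in most wells, which stood at Ct 40. The global mean split them 63 higher and 49 lower, and the mean of the reference RNAs 138 and 9. Leaving out a replicate or tissue sample gave 97 to 151, and 62 to 115 after median centring, against 109, with 62 and 72 without tissue samples 1 and 2. Tissue averaged as 1 sample gave 65 after median centring (26 higher, 39 lower), and the calls of miR-130b after U6 scaling (adjusted p = 0.161) and of miR-130a after median centring (0.198) were lost. The ratio of miR-301b over miR-130b ran from 2.63 to 3.39 with a replicate or tissue sample left out. With 1 tissue sample left, the 11 splits are too few to reach the threshold of 0.05. The ratio difference was 2.94 against stellate and 3.07 against non-stellate samples (exact permutation p = 0.0476 each, the smallest of 21 splits). The causes were not tested. Alternatives of the median-centred comparisons, apart from the block, and the other ratios with a library left out were added after seeing the data. With 2 tissue samples and single wells, differences of about 1 cycle sat at the threshold.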
